A study of Mus musculus with 12 samples.

Results

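Myoglobin and the creatine and adenylate kinase system of the heart comprise 8 of the 20775 genes in each deposited expression table: the oxygen-binding protein myoglobin (Mb), the creatine kinases Ckm, Ckb, Ckmt1 and Ckmt2, the creatine transporter Slc6a8, and the adenylate kinases Ak1 and Ak3. They were chosen by name, with the knockout and Ctrl values of these samples in view, so their own differences between knockout and Ctrl are a description. No p-value is given for them, and whether they met the call rule used for all genes only places them among those genes and is no evidence of a difference. RNA was sequenced from hearts of C57BL/6 embryos at E10.5, with 3 cKO samples, in which Tnnt-Cre acted on Med30 f/f, and 3 of littermates without Cre (Ctrl), and from cardiomyocytes isolated 4 weeks after tamoxifen from C57BL/6 mice of 3 months of age, with 3 samples of Med30 f/f mice carrying αMHC-MerCreMer (icKO) and 3 of Cre-negative Med30 f/f mice that also received tamoxifen (Ctrl). Med30 is a subunit of Mediator, the complex that links transcription factors to RNA polymerase II, and its exon 1 is floxed. Tnnt-Cre acts in developing cardiomyocytes and αMHC-MerCreMer in cardiomyocytes after tamoxifen. The labels call both control groups wild type and name the source heart at both stages. Ctrl carry no Cre, so an effect of Cre is not separated from loss of Med30, and whether a sample came from 1 animal or a pool is not stated.

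Heart muscle stores little ATP and refills it as fast as it is used. Creatine kinase moves a phosphate group between ATP and creatine, so that phosphocreatine made beside mitochondria can restore ATP beside myosin and ion pumps. Adenylate kinase turns a pair of ADP into ATP and AMP, and myoglobin binds oxygen in the cytosol of striated muscle. During development the heart shifts from the brain-type creatine kinase Ckb to the muscle-type Ckm and the sarcomeric mitochondrial Ckmt2.

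Expression was measured as RPKM, the reads of a gene per kilobase and per M reads of the library, and the libraries held an estimated 12.04 to 20 M reads. A transcript of 2 kb with 3 reads would be at 0.075 to 0.125 RPKM, a floor that covers counting error only. Med30 itself was at 10.6 to 13.3 RPKM in E10.5 Ctrl and 1.004 to 2.02 in cKO, a log2 fold change of −2.96 (adjusted p = 0.000367, limma), and at 7.45 to 7.66 RPKM in 4 weeks Ctrl and 1.82 to 3.81 in icKO, a log2 fold change of −1.40 (adjusted p = 0.000403, limma). The cardiomyocyte marker Tnnt2 was at a mean of 889 RPKM in E10.5 Ctrl and 3387 RPKM in 4 weeks Ctrl. RPKM were used as deposited. Over every gene tested the log2 fold changes had a median of −0.13 at E10.5 and 0.57 at 4 weeks, called the overall median here. The 20 most abundant genes held 24.8% to 25.4% of the summed RPKM in 4 weeks Ctrl and 11.5% to 13.1% in icKO. In such bulk samples, fewer cells of a type and less RNA per cell cannot be told apart.

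The promoters of 4 members are shown because these genes make up nearly all of the myoglobin and creatine kinase message, and because Mb and Ckm were lower in the knockout samples at 4 weeks while Ckb was higher. Each line gives the 250 bases before a RefSeq transcript start in GRCm38.p6, 5′ to 3′ on the gene's strand. Capitals mark E-boxes (CANNTG), TATA boxes (TATAAA or TATATA) and MEF2 sites, searched on both strands.
Mb promoter, chr15:77022728-77022977, minus strand: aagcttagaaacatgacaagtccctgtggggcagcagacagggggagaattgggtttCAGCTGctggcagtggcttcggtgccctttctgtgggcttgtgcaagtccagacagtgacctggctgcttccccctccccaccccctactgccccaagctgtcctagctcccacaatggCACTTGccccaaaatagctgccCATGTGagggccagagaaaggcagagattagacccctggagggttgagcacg
Ckm promoter, chr7:19410844-19411093, plus strand: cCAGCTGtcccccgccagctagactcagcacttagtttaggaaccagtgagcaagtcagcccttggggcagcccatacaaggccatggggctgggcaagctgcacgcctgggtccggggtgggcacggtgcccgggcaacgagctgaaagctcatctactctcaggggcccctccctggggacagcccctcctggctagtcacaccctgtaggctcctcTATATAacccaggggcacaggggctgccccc
Ckmt2 promoter, chr13:91876886-91877135, minus strand: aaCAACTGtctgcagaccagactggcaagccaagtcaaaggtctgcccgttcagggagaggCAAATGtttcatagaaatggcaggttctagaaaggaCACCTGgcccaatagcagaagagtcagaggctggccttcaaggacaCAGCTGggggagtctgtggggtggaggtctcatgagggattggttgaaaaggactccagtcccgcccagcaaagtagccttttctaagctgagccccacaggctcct
Ckb promoter, chr12:111672339-111672588, minus strand: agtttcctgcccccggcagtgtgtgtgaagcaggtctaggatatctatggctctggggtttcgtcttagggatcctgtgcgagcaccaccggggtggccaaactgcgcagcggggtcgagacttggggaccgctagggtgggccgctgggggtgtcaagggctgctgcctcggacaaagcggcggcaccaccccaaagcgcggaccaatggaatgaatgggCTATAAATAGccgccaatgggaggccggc
The Mb window held 3 E-boxes, the Ckm window 1, the Ckmt2 window 4 and the Ckb window 0, where 66.2% of 32851 promoter windows of the same length held at least 1. A TATA box lay in the Ckm and the Ckb windows, against 15.6% of all windows. In Ckb the TATA box overlapped the one MEF2 site found among these windows, and 2.92% of all windows held a MEF2 site. A CArG box, the site of serum response factor, was searched for too and was found in none of the 4 windows and in 1.47% of all windows. These are matches of letters and say nothing of binding. RefSeq windows matched 7 of the 8 members, Slc6a8 being the other, and Mb has 3 such windows, of which the one with the most downstream start is printed.

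At E10.5, 6 of the 8 genes passed the filter on low values, a mean RPKM above 1 over the 6 samples. The call rule was an adjusted p under 0.05 (limma) together with a log2 fold change beyond 1, and by it 1 of the 6 was lower in cKO (Mb), beside 0.542% of all 10885 genes tested, and 1 was higher (Ckb), beside 0.239%. At 4 weeks 7 of the 8 passed the filter, 4 were lower in icKO (Mb, Ckm, Ak1 and Ak3), beside 8.45% of all 9517 genes tested, and 2 were higher (Ckb and Slc6a8), beside 28% of them. The cKO samples lay entirely below Ctrl in 2 of the 6 genes at E10.5 (Mb and Ak3), beside 22.6% of all genes tested, and entirely above in 1 (Ckb), beside 6.5%. The icKO samples lay entirely below Ctrl in 5 of the 7 genes (Mb, Ckm, Ckmt2, Ak1 and Ak3), beside 18.9%, and entirely above in 2 (Ckb and Slc6a8), beside 62%. Since the genes were picked with these comparisons known, nothing is read from their counts against those shares. Mb was the gene with the largest difference of the 8 at both stages, and Ckb was higher in the knockout at both.

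**Figure D1:**
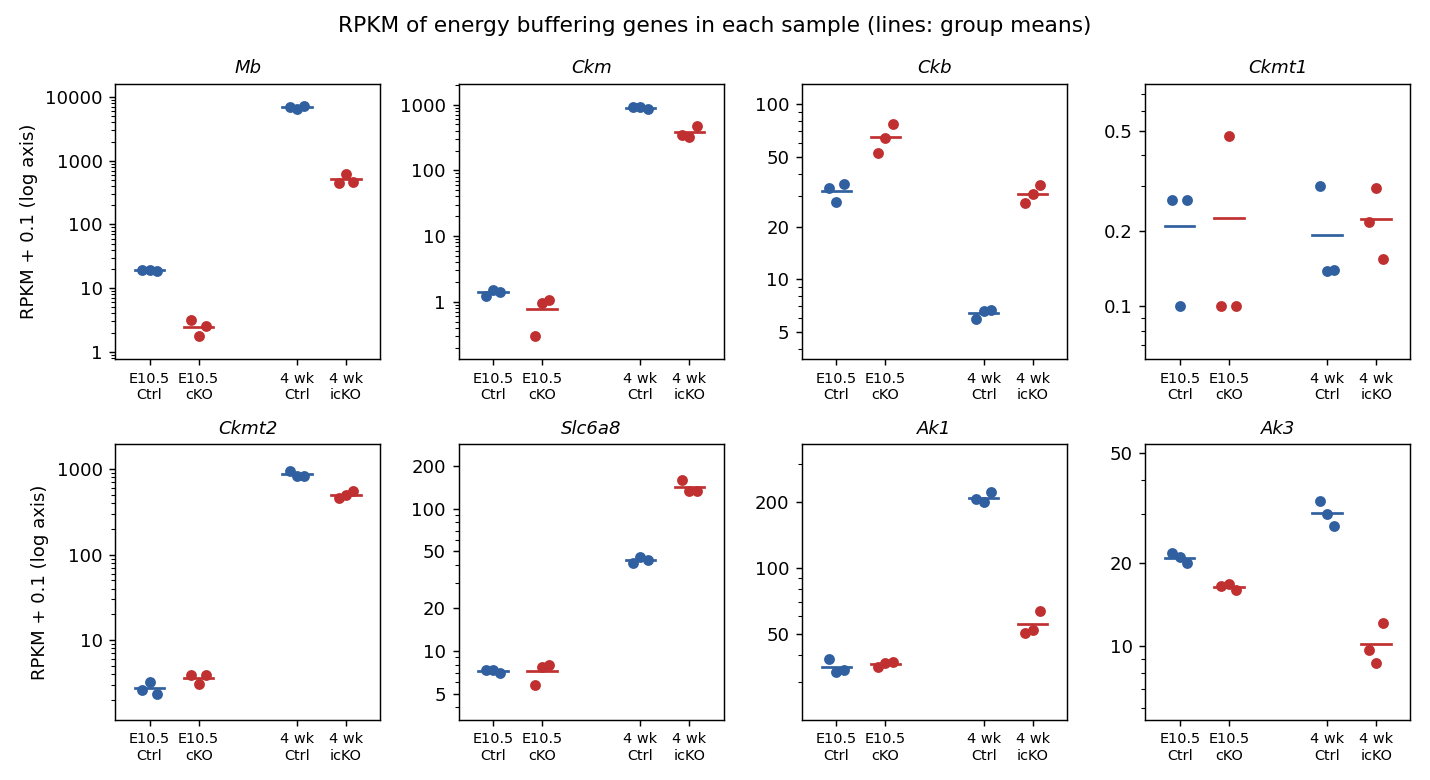
RPKM of the 8 genes in each of the 12 samples, as points on a log axis after adding 0.1, with Ctrl in blue, knockout in red and lines at the group means. Mb lies lower in every knockout sample at both stages and Ckb lies higher, whereas Ckm, Ckmt2, Ak1 and Ak3 are lower without overlap at 4 weeks and Slc6a8 is higher.

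Mb, which encodes the muscle oxygen store (15:77015487-77050670, minus strand, GRCm38), was at 19.4, 19.4 and 18.3 RPKM in E10.5 Ctrl and at 3.06, 1.64 and 2.41 RPKM in cKO. Every cKO sample lay far below every Ctrl sample. The mean fell from 19.0 ± 0.610 to 2.37 ± 0.712 RPKM (SD, n = 3 each), which is −2.99 as log2 fold change (SE 0.20). At 4 weeks Mb was at 6981, 6543 and 7176 RPKM in Ctrl and at 455, 613 and 459 RPKM in icKO, again with no overlap. The means were 6900 ± 324 and 509 ± 90.1 RPKM (SD, n = 3 each), which is −3.77 as log2 fold change (SE 0.12), or −4.34 against the overall median.

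Because the tables were scaled separately, levels of the stages are set side by side without a test. Mb was the gene with rank 2 by RPKM of all 20775 genes in each of the 3 adult Ctrl samples, and it ranked between 25 and 45 in icKO. At E10.5 it ranked between 1614 and 1997 in Ctrl and between 8182 and 9819 in cKO. Its share of the summed RPKM at 4 weeks was 3.04% ± 0.136 in Ctrl and 0.221% ± 0.0308 in icKO (SD, n = 3 each). Even after the fall, Mb thus remained among the most abundant transcripts of the adult cells.

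Ckm, the muscle-type subunit of cytosolic creatine kinase (7:19404776-19422841, plus strand), was scarce in the embryonic heart. It was at 1.13, 1.43 and 1.32 RPKM in E10.5 Ctrl and at 0.202, 0.844 and 0.979 RPKM in cKO. At a transcript length of 1415 bases, fitted to give whole reads, these correspond to about 32, 32 and 30 reads and to 5, 21 and 19 reads. The longest annotated transcript, of 2742 bases, would give about 62, 62 and 58 reads and 9.7, 41 and 37 reads. Each cKO value was under the lowest Ctrl value. With a mean of 0.983 RPKM over the 6 samples, Ckm lay just under the filter. Its difference, −1.04 on the log2 scale, was −0.46 without cKO replicate 1, which had the fewest reads on Ckm.

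In adult cardiomyocytes Ckm was at 927, 929 and 847 RPKM in Ctrl and at 344, 318 and 478 RPKM in icKO. The groups did not overlap. The mean fell from 901 ± 47.1 to 380 ± 85.8 RPKM (SD, n = 3 each), which is −1.27 as log2 fold change (SE 0.14), or −1.83 against the overall median. Quantile normalization brought it to −0.93, which is short of the limit on size.

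Ckb, the brain-type cytosolic subunit that is typical of embryonic heart and of non-muscle cells (12:111669361-111672338, minus strand), moved the other way. At E10.5 it was at 33.0, 27.7 and 34.8 RPKM in Ctrl and at 52.9, 64.0 and 77.0 RPKM in cKO. Every cKO sample exceeded every Ctrl sample. The mean rose from 31.8 ± 3.71 to 64.6 ± 12.1 RPKM (SD, n = 3 each), 2.03-fold, with a log2 fold change of 1.01 (SE 0.15). This value sits on the limit of 1, and the call rule was not met with a pseudocount of 1 (0.99), with no RPKM filter (1.01), without Ctrl replicate 2 (0.91) or 3 (1.08), and without cKO replicate 2 (1.01) or 3 (0.88), while all 15 alternatives gave log2 fold changes between 0.88 and 1.19.

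In adult cardiomyocytes Ckb was at 5.85, 6.47 and 6.59 RPKM in Ctrl and at 27.0, 30.7 and 34.7 RPKM in icKO. The lowest icKO sample was well above the highest Ctrl sample. The mean rose 4.88-fold, from 6.30 ± 0.399 to 30.8 ± 3.85 RPKM (SD, n = 3 each), with a log2 fold change of 2.26 (SE 0.11), or 1.70 against the overall median. Over the 15 alternatives the log2 fold change of Ckb at 4 weeks ranged from 1.73 to 2.36. The level in icKO (30.8 RPKM) and that of E10.5 Ctrl (31.8 RPKM) come from separately scaled tables.

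Ckmt2 encodes the sarcomeric creatine kinase of the mitochondrial intermembrane space (13:91853387-91876885, minus strand). At E10.5 it was at 2.49, 3.10 and 2.26 RPKM in Ctrl and at 3.81, 2.99 and 3.78 RPKM in cKO. The groups overlapped, and the log2 fold change of 0.42 (SE 0.18) was not called. At 4 weeks it was at 963, 834 and 834 RPKM in Ctrl and at 457, 495 and 554 RPKM in icKO, with no overlap. The means of 877 ± 74.4 and 502 ± 49.2 RPKM (SD, n = 3 each) gave a log2 fold change of −0.81 (SE 0.097), short of the limit on size. Against the overall median it was −1.37, and Ckmt2 met the call rule with median-ratio scaling (−1.35) and when the 20 most abundant genes were left out of the scaling (−1.05), but not with quantile normalization (−0.45).

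Ckmt1, the ubiquitous mitochondrial isoform (2:121357714-121363737, plus strand), was near the floor in all samples. Its values corresponded to 5, 0 and 4 reads in E10.5 Ctrl, 0, 10 and 0 reads in cKO, 4, 1 and 1 reads in 4 weeks Ctrl and 3, 5 and 1 reads in icKO. No difference was detectable at this depth.

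The mix of creatine kinase transcripts within a sample is not altered by any single scaling factor per library, though quantile normalization, which is not a single factor, alters it. Of the summed RPKM of the 4 genes, Ckb made up 88.6% ± 2.36 in E10.5 Ctrl and 93.7% ± 0.631 in cKO (SD, n = 3 each), and Ckm 3.64% ± 0.704 and 0.930% ± 0.498. Ckmt2 made up 7.42% ± 1.96 in E10.5 Ctrl and 5.23% ± 1.27 in cKO. The embryonic heart thus held mostly Ckb, and the samples with the highest Ckb share were those of cKO. At 4 weeks Ckm made up 50.5% ± 1.82 in Ctrl and 41.3% ± 3.57 in icKO, Ckmt2 49.1% ± 1.84 and 55.3% ± 3.36, and Ckb 0.355% ± 0.0422 and 3.38% ± 0.222. The adult mix in icKO therefore stayed one of Ckm and Ckmt2, with Ckb as a minor part. The summed RPKM of the 4 genes was 1784 ± 105.4 in 4 weeks Ctrl and 913 ± 134 in icKO, and 35.8 ± 3.28 in E10.5 Ctrl and 69.0 ± 12.4 in cKO.

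**Figure D2:**
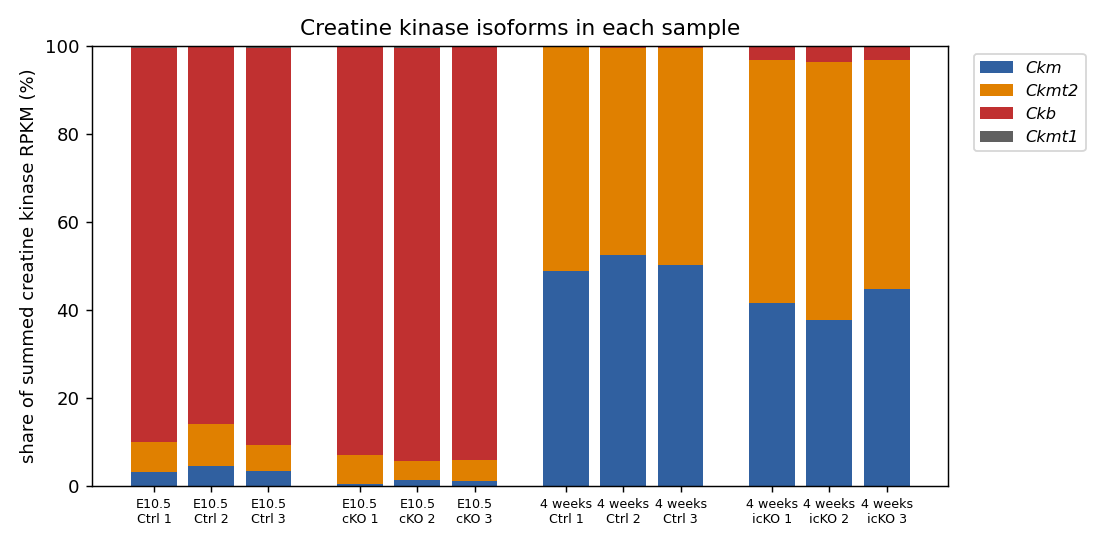
Stacked bars give the share of each isoform in the summed creatine kinase RPKM, in percent, for each of the 12 samples. Ckb fills most of every E10.5 bar, Ckm and Ckmt2 fill the adult bars, and a band of Ckb of 3.25% to 3.64% appears at the top of the 3 icKO bars, against 0.308% to 0.391% in 4 weeks Ctrl.

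Slc6a8 encodes the transporter that brings creatine into the cell (X:73673150-73682502, plus strand). At E10.5 it was at 7.22, 7.18 and 6.86 RPKM in Ctrl and at 5.68, 7.59 and 7.88 RPKM in cKO, with overlap and a log2 fold change of −0.02 (SE 0.14). At 4 weeks it was at 41.3, 45.6 and 43.2 RPKM in Ctrl and at 160, 134 and 134 RPKM in icKO. The icKO samples lay far above Ctrl. The mean rose 3.29-fold, from 43.4 ± 2.14 to 143 ± 15.1 RPKM (SD, n = 3 each), with a log2 fold change of 1.71 (SE 0.091), or 1.14 against the overall median. Its transcript ranked between 667 and 754 in adult Ctrl and between 202 and 281 in icKO.

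Ak1 encodes the cytosolic adenylate kinase of muscle (2:32621758-32635058, plus strand). At E10.5 it was at 38.2, 33.3 and 34.2 RPKM in Ctrl and at 35.2, 36.6 and 36.9 RPKM in cKO, with overlap and a log2 fold change of 0.04 (SE 0.11). At 4 weeks it was at 207, 199 and 222 RPKM in Ctrl and at 50.5, 52.1 and 63.4 RPKM in icKO, with no overlap. The mean fell from 210 ± 11.9 to 55.3 ± 7.01 RPKM (SD, n = 3 each), which is −1.93 as log2 fold change (SE 0.099).

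Ak3, the GTP:AMP phosphotransferase of the mitochondrial matrix (19:29020833-29047961, minus strand), was at 21.6, 21.0 and 19.8 RPKM in E10.5 Ctrl and at 16.4, 16.7 and 15.8 RPKM in cKO. All cKO samples lay below Ctrl, but the log2 fold change of −0.35 (SE 0.10) was not called. At 4 weeks it was at 33.3, 29.9 and 27.1 RPKM in Ctrl and at 9.57, 8.60 and 12.1 RPKM in icKO, with no overlap. The mean fell from 30.1 ± 3.11 to 10.1 ± 1.80 RPKM (SD, n = 3 each), which is −1.58 as log2 fold change (SE 0.13). Ak1 made up 87.4% ± 1.54 of the RPKM of Ak1 and Ak3 together in adult Ctrl and 84.6% ± 1.03 in icKO.

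**Figure D3:**
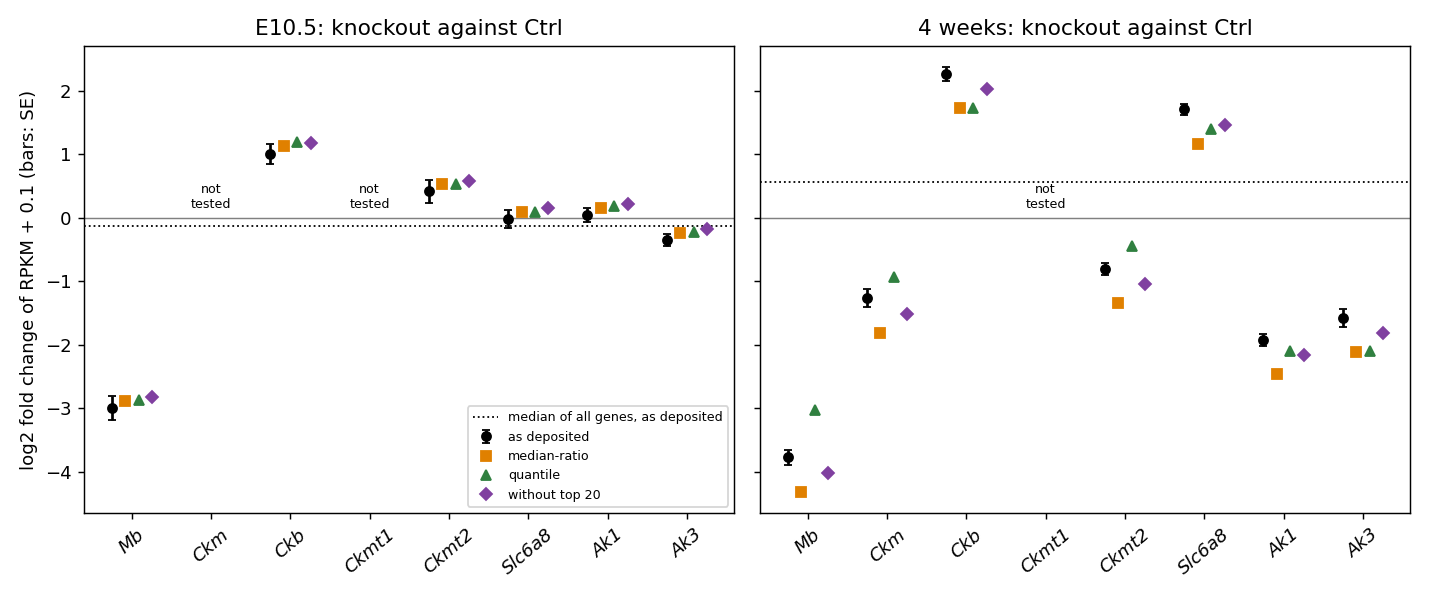
Log2 fold change of RPKM + 0.1, knockout against Ctrl, for those of the 8 genes tested at each stage, with the standard error (SE) on the values as deposited and other symbols for 3 other scalings. Ckm at E10.5 and Ckmt1 at both stages are marked as not tested and have no symbol. Dotted lines mark the overall median (−0.13 at E10.5 and 0.57 at 4 weeks), and no scaling turns the direction of Mb, Ckm, Ckb, Ckmt2, Slc6a8, Ak1 or Ak3 at 4 weeks.

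Over its whole span, introns included, Mb shares bases on the other strand with Gm49540 and Apol6, Ckm with A930016O22Rik, Ckmt1 with Strc, Ckmt2 with 1700119I11Rik, and Ak3 with Cdc37l1 and 1700018L02Rik. Whether exons overlap was not examined, and whether the counting used strand is not stated. It is thus not known whether reads of such neighbours enter their values.

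Around these genes, 9 lists with 53 genes of the same metabolism and its known regulators were examined, 52 of which were in the tables. At E10.5, 44 were tested and 0 were called in either direction (limma), with 17 at an unadjusted p under 0.05. Their median log2 fold change was −0.21, beside −0.13 over all genes. Without the limit on size, 5 of them were lower at an adjusted p under 0.05 (limma), and they are named after their values were seen: the AMP-activated protein kinase subunit Prkag2 (−0.66, adjusted p = 0.0272), the ADP/ATP carrier Slc25a5 (−0.71, adjusted p = 0.0279), the hypoxia factor Hif1a (−0.54, adjusted p = 0.0398), the muscle coactivator Myocd (−0.57, adjusted p = 0.0291) and the nuclear receptor Esrrg (−0.70, adjusted p = 0.0328). The share of all genes tested that met this looser rule is not given here, at this stage or at 4 weeks. At 4 weeks, 41 of the listed genes were tested, 4 were called lower and 6 higher (limma), beside 8.45% and 28% of all genes tested. Their median log2 fold change there was −0.0033, beside 0.57 over all genes.

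Among the carriers that pass ADP, ATP and phosphate through the mitochondrial membranes, 1 of 6 was called lower at 4 weeks and 0 higher. This was Slc25a4, the ADP/ATP carrier of heart and muscle, at 2327, 2396 and 2304 RPKM in Ctrl and 1009, 1173 and 1131 RPKM in icKO. Its log2 fold change was −1.09 (SE 0.083, adjusted p = 3.69e-06, limma), and with quantile normalization it was −0.09 and not called (adjusted p = 0.575). With no RPKM filter the call was lost too (adjusted p = 0.0994, limma). All 6 carriers had log2 fold changes below 0 as deposited and under the 3 other scalings, 5 of them at an adjusted p under 0.05 as deposited (limma). The median over all genes tested was 0.57 as deposited, and the share of all genes that met this rule is not given here.

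Among the 7 subunits of AMP-activated protein kinase, the sensor of a falling ATP level, 3 were called higher at 4 weeks and 0 lower, where 28% of all genes tested were called higher. The regulatory subunit Prkag2 was at 5.74, 5.02 and 4.26 RPKM in Ctrl and 26.7, 27.2 and 26.1 RPKM in icKO, a log2 fold change of 2.40 (SE 0.11, adjusted p = 4.21e-07, limma). Prkag3, a subunit typical of skeletal muscle, had a log2 fold change of 2.57 (SE 0.19, adjusted p = 2.81e-06, limma) from a Ctrl mean of 0.570 RPKM, so that it passed the filter only through the icKO samples, and Prkab2 one of 1.93 (SE 0.15, adjusted p = 4.16e-06, limma). These 3 were called higher under each of the 3 other scalings too. The remaining 4 subunits, both catalytic ones among them, were not called. Without the limit on size, 2 of them were lower at an adjusted p under 0.05 (limma), named after their values were seen: the catalytic subunit Prkaa2 (−0.44, adjusted p = 0.000652) and Prkab1 (−0.23, adjusted p = 0.0418). The other catalytic subunit, Prkaa1, also named after its values were seen, was higher by the same rule (0.58, adjusted p = 0.0132, limma). The median over all genes tested was 0.57.

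Of the other adenylate kinases, 2 were tested at 4 weeks and 0 were called in either direction (limma), with 1 at an unadjusted p under 0.05. This was Ak6, named after its values were seen, which missed the call on size alone (0.82, adjusted p = 0.000397, limma). The median over all genes tested was 0.57. Of the nucleoside diphosphate kinases, which pass phosphate between ATP and other nucleotides, 1 of 3 tested was called higher, Nme1 (1.77, SE 0.10, adjusted p = 8.75e-07, limma). Nme2, at a mean of 171 RPKM in Ctrl and 170 RPKM in icKO, was not called. Nme4, the mitochondrial member, lay just under the filter with a mean of 0.956 RPKM and is named after its values were seen. It was at 1.67, 2.18 and 1.44 RPKM in Ctrl and 0.069, 0.278 and 0.097 RPKM in icKO, with no overlap. It was called lower with no RPKM filter and in each of the 3 fits without an icKO replicate (limma). In those 3 fits it passed the filter only through the Ctrl samples.

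Of the enzymes of AMP and adenosine turnover, 1 of 4 tested was called lower at 4 weeks and 0 higher. Nt5c1a, a cytosolic nucleotidase that makes adenosine from AMP, was at 14.5, 14.2 and 16.4 RPKM in Ctrl and 2.47, 2.93 and 4.32 RPKM in icKO. Its log2 fold change was −2.21 (SE 0.18, adjusted p = 6.19e-06, limma). The enzymes of creatine synthesis were low in adult cells. Gatm was at or under 0.127 RPKM in all 6 adult samples and Gamt between 0.424 and 1.32 RPKM, and neither passed the filter.

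Cytoglobin (Cygb), a globin known from fibroblast-like cells, was called higher at 4 weeks, with 0.227, 0.681 and 1.009 RPKM in the Ctrl samples and 2.46, 2.07 and 2.61 RPKM in the icKO samples (log2 fold change 1.91, SE 0.40, adjusted p = 0.00183, limma). It passed the filter only through the icKO samples. Of the 7 oxygen-sensing genes, 1 was called lower and 0 higher at 4 weeks. Egln1, the prolyl hydroxylase that marks Hif1a for destruction, was at 109, 102 and 106 RPKM in Ctrl and 47.8, 47.8 and 43.4 RPKM in icKO (log2 fold change −1.19, SE 0.075, adjusted p = 1.43e-06, limma). Of the 11 muscle transcription factors and coactivators tested at 4 weeks, 1 was called lower and 1 higher. Ppargc1a, a coactivator of mitochondrial genes, had a log2 fold change of −1.90 (SE 0.11, adjusted p = 9.58e-07, limma), and serum response factor (Srf) one of 1.11 (SE 0.11, adjusted p = 2.18e-05, limma), which was 0.57 to 0.87 and not called under the other scalings.

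**Figure D4:**
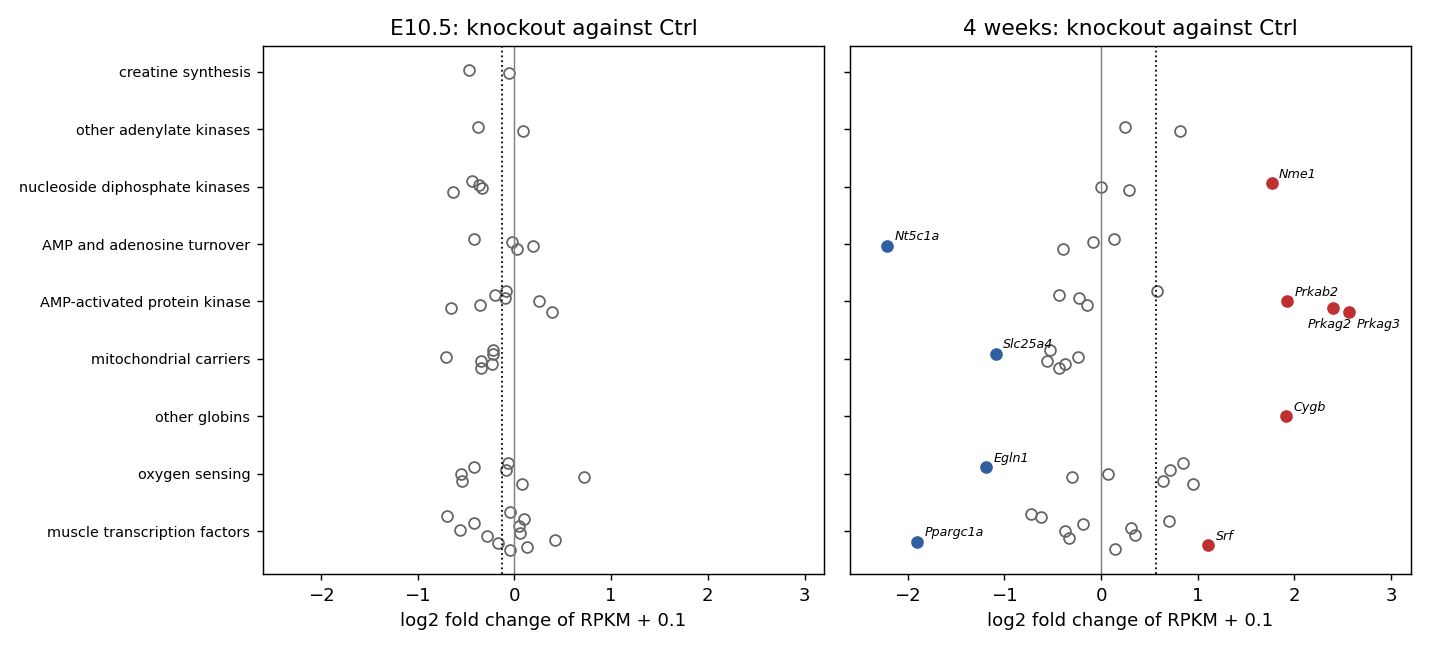
Log2 fold change of each tested gene on the 9 lists, 1 list per line, with E10.5 on the left and 4 weeks on the right. Filled points are called genes, red for higher and blue for lower, and the dotted lines mark the overall median. There are 0 filled points at E10.5, and at 4 weeks 4 blue and 6 red ones.

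The genes whose pattern over the 12 samples was most like that of a member were sought among 8903 genes with a mean RPKM above 1 at both stages, by the root mean square (RMS) difference of the log2 values after subtracting the Ctrl mean of the own stage. For Mb these were Angpt1, a vascular growth factor ligand (RMS difference 0.54), Art1, an ADP-ribosyltransferase of muscle (0.67), and Gja1, connexin 43 of the gap junctions (0.79). None fell as far as Mb in either comparison, Angpt1 having log2 fold changes of −2.20 at E10.5 and −3.43 at 4 weeks. For Ckm, which itself lay under this limit at E10.5 (mean 0.983 RPKM), they were Rapsn (0.32), Rcor2 (0.36) and Ptcd2 (0.38). For Ckb they were the small Maf factor Maff (0.23), the cochaperone Dnaja4 (0.24) and the cadherin Fat1 (0.24), and Maff had log2 fold changes of 0.87 and 2.39. The 12 samples share their libraries and scaling across genes, so these are descriptions.

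Marker genes of other cell types moved in the same samples at 4 weeks. Of all genes tested there, 8.45% were called lower and 28% higher. The summed RPKM of the 6 cardiomyocyte markers was 15909 to 17199 in Ctrl and 5320 to 6683 in icKO, and 4 of them were called lower (Myh6, Actc1, Tnni3 and Ryr2), with log2 fold changes over the list from −3.34 to 0.74. The 5 fibroblast markers summed to 4.44 to 7.81 RPKM in Ctrl and 34.0 to 59.0 RPKM in icKO, and 4 were called higher, of which Col1a1, Col1a2 and Col3a1 passed the filter only through the icKO samples, while Pdgfra stayed at a mean under 1. The sums of the 5 endothelial markers were 9.19 to 19.6 and 20.4 to 31.0 RPKM with 0 called, those of the 5 mural markers 46.1 to 71.6 and 46.3 to 77.4 RPKM with 2 called higher (Pdgfrb, which passed the filter only through icKO, and Cspg4), and those of the 4 macrophage markers 1.78 to 2.69 and 3.57 to 6.35 RPKM with 1 called higher. Most of the mural sum was Acta2, at a mean of 48.1 RPKM in Ctrl and 35.8 RPKM in icKO. The 7 skeletal muscle markers summed to 57.9 to 253 and 181 to 429 RPKM with 1 called higher (Tnnt3, which passed the filter only through icKO), and Myog was at 0 in all 6 samples. Nearly all of this sum was Acta1, at 57.7 to 253 RPKM in Ctrl and 171 to 421 RPKM in icKO, which was not called. The 9 erythroid markers summed to 1.29 to 21.3 and 11.7 to 26.5 RPKM with 0 called, and none of the epicardial and neural markers passed the filter. The part of these shifts in the values of Ckb, Slc6a8, Cygb and the members that fell was not tested.

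At E10.5, 0 of the 6 cardiomyocyte markers was called (3653 to 4725 RPKM in Ctrl and 2850 to 3378 in cKO, log2 fold changes from −0.49 to −0.07), so that Mb differed by far more than any of them. Of the fibroblast, endothelial, mural, epicardial, erythroid and neural markers 0 were called, and the fibroblast sum was 70.6 to 116 RPKM in Ctrl and 90.9 to 100 RPKM in cKO. The erythroid sum ranged from 329 to 1094 RPKM in Ctrl and from 506 to 2961 RPKM in cKO. Of the skeletal muscle markers Acta1 was called higher and Tnnt3 lower, with Myod1 and Pax7 at 0 in all 6 samples, and of the macrophage markers Lyz2 was called lower. Of all genes tested at E10.5, 0.239% were called higher and 0.542% lower.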

How the data were processed

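RNA-seq libraries of total RNA (ribosomal RNA removed) were made from E10.5 hearts and adult cardiomyocytes, 3 samples per group. Per the labels, the submitters' processing notes name cutadapt 2.6, STAR 2.5.3a, HOMER 4.11.1, DESeq2 1.12.4 and build mm10, with no role given. The authors mapped the reads to GRCm38 and deposited RPKM for 20775 genes, 1 table per stage. Their columns of log2 fold change, FDR and mean RPKM were not used, and 0 columns of per-sample values were left out. Reads per library were estimated from the spacing of low RPKM values, of which 65.0% to 72.7% lay within 0.1 of a whole read.

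Each stage was fitted with limma 3.58.1 (lmFit, eBayes with trend; R 4.3.3) on log2(RPKM + 0.1), so fold changes of low genes are understated. Genes whose RPKM averaged more than 1 across the 6 samples of a stage were tested, with Benjamini-Hochberg adjustment over all of them. No test was made between stages, and no count model was run on RPKM. Nothing states that replicates came from separate animals, so p-values measure the spread between these samples. The fits were tested on simulated data.

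The 8 genes, the pathway and marker lists and the named genes were chosen with earlier results of these data known. Named were the 8 genes, Med30, up to 4 called genes per pathway list and stage by size of change, and the 3 genes most like each of Mb, Ckm and Ckb. A gene of the pathway lists is not reported here and was left out of their counts. Promoters came from RefSeq and gene positions from GENCODE on GRCm38. As alternatives, the pseudocount was set to 1 or 0.01, the RPKM filter was dropped or raised to 5, values were rescaled by median ratios, by quantiles or to the sum without the 20 most abundant genes, the trend was dropped, the replicate number was added as a block, and each replicate was left out. Conversion of Ckm and Ckmt1 to whole reads used the transcript lengths that brought the values closest to whole numbers, 1415 and 1515 bases. The largest distance of 0.134 reads from a whole number is thus a product of that search. This conversion and the fit of Ckm without a filter were added after seeing the data. Python 3.11.15, pandas 2.3.3 and numpy 2.4.6 were used for tables.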

Additional observations from a re-analysis of the deposited data

Results flagged for a closer look

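For 3 genes of the pathway lists, all knockout samples lay on one side of Ctrl at E10.5 and on the other side at 4 weeks. The difference between the stages was not tested for any of them. All 3 lay below Ctrl at E10.5, beside 22.6% of all genes tested there, and above at 4 weeks, beside 62%. The share of all genes that did both is not given here. The nucleoside diphosphate kinase Nme1 had a log2 fold change of 1.77 at 4 weeks and −0.43 at E10.5 (adjusted p = 0.0877 at E10.5, limma). The AMP-activated protein kinase subunit Prkag2 had 2.40 and −0.66, and the hypoxia factor Hif1a 0.64 and −0.54. The values at 4 weeks stand beside a median of 0.57 over all genes tested. Under 3 other scalings none of the 3 changed sign at either stage, but Hif1a came down to 0.11 at 4 weeks. None of the 8 members was opposite in this way. Groups of 3 are too small for the check of single far samples.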

How the results depend on the processing

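Mb at both stages and Ckb, Slc6a8, Ak1 and Ak3 at 4 weeks kept their direction under every alternative in which they were fitted, and at 4 weeks all 5 met the call rule under all 15, which describes genes chosen with these values known. At E10.5 Mb met it under 14 of 15, with the exception of no RPKM filter, where the limma fit called 0 members lower and 0 higher, and 1 gene of all 20775. The number of members called higher at E10.5 was also 0 with a pseudocount of 1, and it ranged from 0 to 1 with a replicate left out. Ckb fell short of the limit of 1 on size without Ctrl replicate 2 or cKO replicate 3. Without Ctrl replicate 3 or cKO replicate 2 its log2 fold change stayed above 1, and the call was lost on the adjusted p (limma). The number of pathway genes lower at 4 weeks was 8 with median-ratio scaling against 4, with Slc25a3, Vdac1, Esrra and Esrrg added. Among all genes at 4 weeks, 804 were called lower and 2668 higher (76.8% of calls higher), against 1476 and 1106 (42.8%) with median-ratio scaling, 1349 and 1192 (46.9%) with quantile normalization and 1055 and 1851 (63.7%) without the 20 most abundant genes. At E10.5 the 59 lower and 26 higher (30.6% higher) became 41 and 35 (46.1%), 37 and 38 (50.7%) and 36 and 48 (57.1%). They were 36 and 12 with a pseudocount of 1, 34 and 9 at a mean RPKM above 5, 38 and 19 without a trend, and 18 to 102 and 9 to 36 with a replicate left out. A mean RPKM above 5 gave 454 and 1687 at 4 weeks. Same-numbered samples had correlations of −0.07 to 0.15 in their deviations from the group means and not every one was highest with its own number, so the numbers were not taken as pairs. The replicate block gave 61 and 32 at E10.5 and 805 and 2672 at 4 weeks, with the same members and pathway genes called. Low depth limits Ckm at E10.5 and Ckmt1.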
